A study of Mus musculus with 14 samples.

Results

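The genes that encode integrin α subunits (Itga), integrin β subunits (Itgb) and laminin chains (Lama, Lamb and Lamc) were examined as a set of receptors and their ligands. They were taken from the expression tables by gene symbol, and 36 of the 23284 genes listed are described here, namely 18 α subunits, 8 β subunits and 10 laminin chains. Of these, 18 were expressed at 5 FPKM or more in at least 1 of the 14 libraries (6 α subunits, 6 β subunits and 6 laminin chains). FPKM is the number of fragments of a gene divided by the exon length of that gene and by the mapped fragments, so that libraries of different depth can be set side by side. RNA was sequenced from EpH4 cells, an epithelial line from the mouse mammary gland, and from EpRas cells, their derivative transformed with H-Ras. Both lines were left untreated or were treated with 1 ng/ml TGF-β3 for 48 h, with 2 libraries for each of the 4 groups. EpH4 cells were grown in 10% serum and EpRas cells in 4% serum, so that the transformation and the serum cannot be told apart in any comparison of the lines. Another 6 libraries, prepared separately, came from EpRas cells that had received a control siRNA (siNC) or siRNAs to knock down the ETS family transcription factors Etv4 and Etv5 (2 independent pairs), with and without TGF-β. There was 1 library for each of these 6 conditions.

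Integrins are receptors for the extracellular matrix that are built from an α and a β subunit, and the pair decides which ligand is bound. The β1 subunit joins with many α subunits, including the collagen receptor subunit α2, the laminin receptor subunits α3, α6 and α7 and the fibronectin receptor subunit α5. The β4 subunit joins with α6 alone and anchors epithelial cells to laminin at hemidesmosomes, while αv joins with β3, β5 and β6, of which β6 is known for releasing latent TGF-β. Laminins are trimers of an α, a β and a γ chain and form the scaffold of the basement membrane. Lama3 and Lamb3 encode an α and a β chain of laminin found at epithelial hemidesmosomes, whereas Lama5 encodes the α chain of the common basement membrane trimers that contain the products of Lamb1 or Lamb2 and of Lamc1.

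The depth of the libraries was not stated. The spacing of low FPKM values put it at 0.609 to 1.36 relative to replicate 1 of untreated EpH4 cells in the untransfected libraries. In the siRNA libraries it was 1.0 to 1.74 relative to untreated siNC cells, with treated siNC cells the deepest. Untransfected groups were compared with limma on log2(FPKM + 1), adjusting p-values (Benjamini-Hochberg) across the 9100 genes with at least 5 FPKM in some untransfected library. A gene was called at an adjusted p under 0.05. All log2 fold changes are given on the log2(FPKM + 1) scale, which understates changes of lowly expressed genes, and most are given with their SE. Of the 18 expressed members, 17 entered this test and Itgb3 did not, because it reached at most 4.41 FPKM in untransfected cells. The paper describes the RNA-seq of the 2 lines as done in 2 biological replicates. The labels do not say that the 2 libraries of a group came from separate cultures, so the p-values measure only the spread between these libraries. The fit pools the spread of a gene over the 4 groups, so its SE is the same in both lines. The median SD between replicates was 0.0914 in treated EpH4 cells and 0.214 in treated EpRas cells. It was 0.146 in untreated EpH4 and 0.147 in untreated EpRas cells. The SE can therefore understate the spread of the treated EpRas libraries. Of the epithelial markers fixed for this purpose, 5 of 7 were at 5 FPKM or more in EpH4 cells and 6 of 7 in EpRas cells. Krt19 was listed at 0 in EpH4 cells and Krt5 in EpRas cells. The leukocyte marker Ptprc, the platelet markers Pf4 and Gp6 and the endothelial markers Pecam1 and Tek were listed at 0 in the untransfected libraries. Other markers of these lists were above 0, of which Cd68 lay at 0.293 to 7.13 FPKM, Csf1r at 0.103 to 6.23 FPKM, Gp1bb at 0.120 to 1.61 FPKM and Cdh5 at up to 0.461 FPKM.

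Before the expression levels, the DNA upstream of 4 members is shown, because 2 of them (Lamb3 and Itga2) were lower with both siRNA pairs against the ETS factors in the presence of TGF-β and the other 2 (Itga5 and Itga3) were not. The sequences are those of RefSeq on GRCm38.p6, the 250 bases before the annotated start in the direction of transcription. The windows lie at chr1:193301744-193301993 on the plus strand (Lamb3), and on the minus strand at chr13:114932101-114932350 (Itga2), chr15:103366792-103367041 (Itga5) and chr11:95076715-95076964 (Itga3). Capitals mark the letters CCGGAA (ETS), TGANTCA (AP-1) or TGTGGT (RUNX) on either strand.
Lamb3: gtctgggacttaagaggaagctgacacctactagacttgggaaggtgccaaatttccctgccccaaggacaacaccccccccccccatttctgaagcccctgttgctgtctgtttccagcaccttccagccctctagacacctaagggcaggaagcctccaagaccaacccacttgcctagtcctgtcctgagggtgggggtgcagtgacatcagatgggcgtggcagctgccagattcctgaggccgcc
Itga2: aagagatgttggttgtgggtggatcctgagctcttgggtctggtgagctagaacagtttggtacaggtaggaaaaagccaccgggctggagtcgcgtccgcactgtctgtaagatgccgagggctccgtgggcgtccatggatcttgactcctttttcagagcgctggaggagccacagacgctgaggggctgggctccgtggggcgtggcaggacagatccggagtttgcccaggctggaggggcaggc
Itga5: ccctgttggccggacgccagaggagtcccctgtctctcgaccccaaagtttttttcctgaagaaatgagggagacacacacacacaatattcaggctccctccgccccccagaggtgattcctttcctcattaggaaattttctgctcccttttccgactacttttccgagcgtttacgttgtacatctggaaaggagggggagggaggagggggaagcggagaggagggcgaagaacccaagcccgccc
Itga3: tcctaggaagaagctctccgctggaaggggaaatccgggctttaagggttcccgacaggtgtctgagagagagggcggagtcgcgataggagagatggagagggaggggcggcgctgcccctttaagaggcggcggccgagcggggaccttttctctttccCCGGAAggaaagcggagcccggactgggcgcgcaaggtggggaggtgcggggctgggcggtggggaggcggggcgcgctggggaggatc
The only match to these exact letters among these 4 windows was CCGGAA at base -89 of Itga3. Other forms of an ETS, AP-1 or RUNX site were not searched for, so unmarked bases may hold them. RefSeq windows were matched by symbol for 11 of the 18 expressed members (14 windows), and CCGGAA was found in 1 of the 14, TGANTCA in 0 and TGTGGT in 1, a second window of Itga3. Among all 32851 windows of this length, 12.0% held CCGGAA, 6.75% held TGANTCA and 14% held TGTGGT. The motifs do not overlap in their letters, and a match or its absence in these windows is a description only.

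In untreated cells of both lines, a few genes provided most of the receptor and ligand mRNA. Itga3 was the most highly expressed α subunit in all 8 untransfected libraries, and untreated EpH4 cells had 277 and 331 FPKM of it while untreated EpRas cells had 499 and 428 FPKM. The summed FPKM of the 18 α subunits was 327 and 381 in these EpH4 libraries and 590 and 530 in these EpRas libraries. With TGF-β, Itga3 was at 292 and 272 of a summed 481 and 458 FPKM in EpH4 cells. In treated EpRas cells it was at 324 and 362 of a summed 557 and 626 FPKM. Among the β subunits, Itgb1, Itgb4 and Itgb5 together carried nearly all of the mRNA. Itgb1 lay between 80.1 and 263 FPKM over the 8 libraries, Itgb4 between 54.3 and 111 FPKM and Itgb5 between 73.8 and 316 FPKM. The 6 expressed laminin chains ranged, in untreated EpH4 cells, from Lama5 (79.5 and 90.4 FPKM) down to Lama3 (11.7 and 12.7 FPKM).

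Treatment with TGF-β increased Lama3 and Lamb3 in both lines and decreased Lama5, while Lamc1 was not called. In EpH4 cells, 10 of the 17 members tested rose and 1 fell, against 9.40% of all genes tested that were called in either direction (6.48% higher, 2.91% lower). Of these, Itga7 and Itgb6 reached 5 FPKM only in treated EpH4 cells, the group in which they were highest, and without them 8 of 15 members rose and 1 fell. In EpRas cells, 4 of the 17 members rose and 1 fell, against 3.82% of all genes (1.90% higher, 1.92% lower). In a fit of the EpRas groups alone, Lamb3 was the only one of these members called. The median log2 fold change of the 17 members was 0.84 in EpH4 cells and 0.13 in EpRas cells (0.79 and 0.02 without Itga7 and Itgb6), and that of all genes tested was -0.02 in both lines. Members called in both lines in the same direction were Lama3, Lamb3, Itga2 and Itga5, which rose, and Lama5, which fell.

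Lama3 (chr18:12334024-12583012, plus strand, mm10) encodes a laminin α chain of epithelia. It was expressed at 11.7 and 12.7 FPKM in EpH4 cells without treatment and at 48.1 and 42.7 FPKM after TGF-β (log2 fold change 1.82 ± 0.16, adjusted p = 0.000673). In the EpRas libraries it rose from 12.3 and 10.5 FPKM to 28.7 and 26.1 FPKM (1.20 ± 0.16, adjusted p = 0.00692). The treated and untreated libraries did not overlap in either line, and the treated EpH4 libraries lay above the treated EpRas libraries.

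Lamb3 (chr1:193301994-193343878, plus strand) encodes the β chain that joins with it. Its level went from 55.7 and 55.9 FPKM to 216 and 213 FPKM in EpH4 cells (1.92 ± 0.14, adjusted p = 0.000306). The EpRas libraries went from 69.7 and 76.3 FPKM to 258 and 253 FPKM (1.80 ± 0.14, adjusted p = 0.000761). The libraries of a group differed little, and the increase in the mean FPKM was 3.84-fold in EpH4 cells and 3.50-fold in EpRas cells.

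Lamc1, which encodes the γ chain of most laminins, was at 25.8 and 24.5 FPKM in untreated and 27.2 and 25.3 FPKM in treated EpH4 cells. In EpRas cells Lamc1 was at 43.3 and 39.9 FPKM in untreated and 38.5 and 46.4 FPKM in treated cells. The log2 fold change of Lamc1 was 0.06 in EpH4 cells (95% interval -0.31 to 0.42) and 0.02 in EpRas cells (-0.34 to 0.39).

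**Figure D1:**
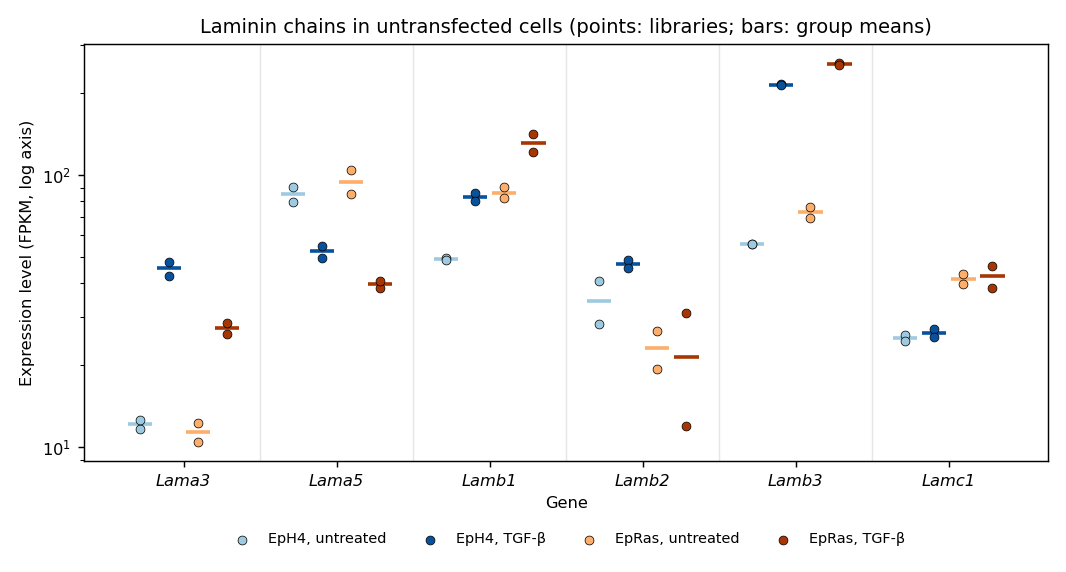
Expression levels of 6 expressed laminin chains in the 8 untransfected libraries, in FPKM on a log axis. Points are libraries and bars are group means. Lama3 and Lamb3 lie higher in the TGF-β-treated libraries of both lines, Lama5 lies lower, and the 2 treated EpRas libraries of Lamb2 stand far apart at 12.0 and 31.1 FPKM.

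Lama5 was the only one of these 6 laminin chains that fell. It went from 79.5 and 90.4 FPKM to 55.1 and 49.8 FPKM in EpH4 cells (-0.68 ± 0.17, adjusted p = 0.0453) and from 104 and 85.0 FPKM to 38.6 and 40.9 FPKM in EpRas cells (-1.22 ± 0.17, adjusted p = 0.00839). The call in EpH4 cells was close to the threshold and held in 2 of the 8 fits that left out 1 library each. Lamb1, the β chain that joins with Lama5, rose in EpH4 cells from 49.4 and 48.6 FPKM to 86.2 and 80.4 FPKM (0.75 ± 0.15, adjusted p = 0.0233). That call was lost when any EpH4 library was left out, with a log2 fold change of 0.702 to 0.802. In EpRas cells Lamb1 was at 82.4 and 90.1 FPKM without and at 141 and 121 FPKM with TGF-β, which was not called (0.60 ± 0.15, adjusted p = 0.0920) although the groups did not overlap. Lamb2, the alternative β chain, was not called in either line, and its treated EpRas libraries, at 12.0 and 31.1 FPKM, lay on both sides of the untreated ones, at 26.7 and 19.5 FPKM.

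The balance of the laminin α chains was different after treatment. The FPKM of Lama3 was 0.147 and 0.140 times that of Lama5 in untreated EpH4 cells and 0.873 and 0.858 times after treatment, and in EpRas cells it went from 0.118 and 0.123 to 0.744 and 0.638 times. Lamb3 had 4.42 to 5.00 times the FPKM of Lama3 in the 4 EpH4 libraries, 5.68 and 7.29 times in untreated EpRas libraries and 8.99 and 9.71 times in treated EpRas libraries. The ratios are given as a description and were not tested.

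Among the α subunits, Itga2 and Itga5 rose in both lines. Itga2, the collagen receptor subunit, was at 5.94 and 5.91 FPKM in EpH4 cells without treatment and at 32.0 and 34.8 FPKM after TGF-β (2.31 ± 0.19, adjusted p = 0.000494). EpRas cells had 3.34 and 4.75 FPKM without and 23.8 and 19.4 FPKM with TGF-β (2.17 ± 0.19, adjusted p = 0.00143). Itga5, the fibronectin receptor subunit, went from 20.2 and 20.9 FPKM to 119.6 and 113 FPKM in EpH4 cells (2.45 ± 0.17, adjusted p = 0.000242), the largest log2 fold change of the 17 members tested with TGF-β in either line. EpRas cells had 45.0 and 46.8 FPKM of Itga5 without and 154 and 198 FPKM with TGF-β (1.91 ± 0.17, adjusted p = 0.00143). The groups of both genes did not overlap. Between the treated lines, Itga5 was called higher in EpRas cells (0.58 ± 0.17, adjusted p = 0.0442), a call that held in 1 of the 8 fits with 1 library left out, and Itga2 was not called (-0.61 ± 0.19, adjusted p = 0.0575).

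Itgav, which encodes αv, rose in EpH4 cells from 9.29 and 9.14 FPKM to 20.5 and 21.0 FPKM (1.09 ± 0.17, adjusted p = 0.00871). This call was lost when any EpH4 library was left out, with a log2 fold change of 1.07 to 1.11. In EpRas cells it was at 14.6 and 17.3 FPKM without and 27.4 and 21.6 FPKM with TGF-β, which was not called (0.58 ± 0.17, adjusted p = 0.140). Itga7, a laminin receptor subunit known from muscle, was low throughout, at 3.21 and 3.91 FPKM in untreated and 6.98 and 7.31 FPKM in treated EpH4 cells (0.84 ± 0.15). It entered the test through these treated libraries alone, so its values are given as a description. In EpRas cells it was at 1.83 and 1.85 FPKM without and 2.29 and 2.34 FPKM with TGF-β. The 2 laminin receptor subunits of epithelia were not called in either line. Itga3 was at 292 and 272 FPKM in treated EpH4 cells, overlapping the untreated ones, and at 324 and 362 FPKM in treated EpRas cells, below the untreated ones (-0.43 ± 0.17, adjusted p = 0.269). Itga6 was at 8.49 and 8.32 FPKM in treated EpH4 cells, and treated EpRas cells had 24.8 and 21.0 FPKM.

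Of the 5 β subunits tested, 3 were called higher with TGF-β in EpH4 cells, against 6.48% of all genes, or 2 of 4 without Itgb6. In EpRas cells 0 of 5 were called higher with limma (1 of 5 had an unadjusted p under 0.05), where 1.90% of all genes were, so that a count of 0 is near the background. Itgb5 (chr16:33829665-33949338, plus strand), a partner of αv in the vitronectin receptor, was at 109 and 90.4 FPKM in EpH4 cells without treatment and at 316 and 294 FPKM after TGF-β (1.60 ± 0.17, adjusted p = 0.00149). In EpRas cells it was at 92.4 and 79.9 FPKM without and 73.8 and 85.8 FPKM with TGF-β (-0.11 ± 0.17, adjusted p = 0.823). Both treated EpH4 libraries stood above the other 6 libraries, and the treated EpRas libraries overlapped the untreated EpRas libraries and lay below the untreated EpH4 libraries. The effect of TGF-β on Itgb5 differed between the lines by -1.71 ± 0.24 (EpRas minus EpH4, adjusted p = 0.0287), and Itgb5 was the only member of 17 called in this comparison, against 0.802% of all genes tested (0.176% higher, 0.626% lower). The adjusted p of this difference was 0.0824 to 0.200 in the fits without replicate 1 or 2 of untreated EpH4, treated EpH4 or untreated EpRas cells or without replicate 1 of treated EpRas cells, and the log2 difference was -1.85 to -1.58 over all fits with 1 library left out.

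Itgb4, the hemidesmosome subunit, rose in EpH4 cells from 57.0 and 54.3 FPKM to 111 and 106 FPKM (0.95 ± 0.20, adjusted p = 0.0252). This call was lost when any EpH4 library was left out, with a log2 fold change of 0.917 to 0.985. In EpRas cells it was at 103 and 89.3 FPKM without and 68.8 and 97.7 FPKM with TGF-β, and these groups overlapped. Itgb6, the subunit known for the activation of TGF-β, was at 1.86 and 2.71 FPKM in untreated and 5.86 and 4.94 FPKM in treated EpH4 cells (0.97 ± 0.18), which is a description for the same reason, and lay between 0.609 and 0.835 FPKM in all 4 EpRas libraries. Itgb1 was higher in the treated libraries of both lines without passing the test, at 109.7 and 80.1 FPKM against 165 and 160.4 FPKM in EpH4 cells (0.79 ± 0.25, adjusted p = 0.105) and at 99.7 and 137 FPKM against 263 and 186 FPKM in EpRas cells (0.91 ± 0.25, adjusted p = 0.116). The effect of TGF-β on Itgb4 was not called as different between the lines (-1.17 ± 0.28, adjusted p = 0.164).

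Itgb3, the β subunit of the vitronectin receptor αvβ3, stayed under the filter in untransfected cells and was read from its steps of whole reads. It had 0 and 0 reads in untreated and 13 and 37 reads in treated EpH4 cells, and 4 and 18 reads in untreated and 124 and 71 reads in treated EpRas cells. Scaled to relative depth and with a floor of 3 reads over the group for the untreated EpH4 cells, the level was at least 21.9-fold higher in treated EpH4 cells, and it was 10.1-fold higher in treated than in untreated EpRas cells. With 1 library of these groups left out, the bound in EpH4 cells was 9.28-fold and 12.6-fold without replicates 2 and 1 of the untreated cells, and 14.1-fold and 27.1-fold without replicates 2 and 1 of the treated cells. The ratio in EpRas cells was 19.5-fold without replicate 2 of the untreated cells and 8.05-fold to 11.4-fold without any of the other 3 libraries. Without a filter on low values, the rise in EpRas cells passed the test (1.84 ± 0.20, adjusted p = 0.0113), that in EpH4 cells did not (0.83 ± 0.20, adjusted p = 0.0640), and the level with TGF-β was higher in EpRas cells (1.43 ± 0.20, adjusted p = 0.00620). Of the αv partners, Itgb5 was thus lower and Itgb3 higher in treated EpRas cells than in treated EpH4 cells.

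**Figure D2:**
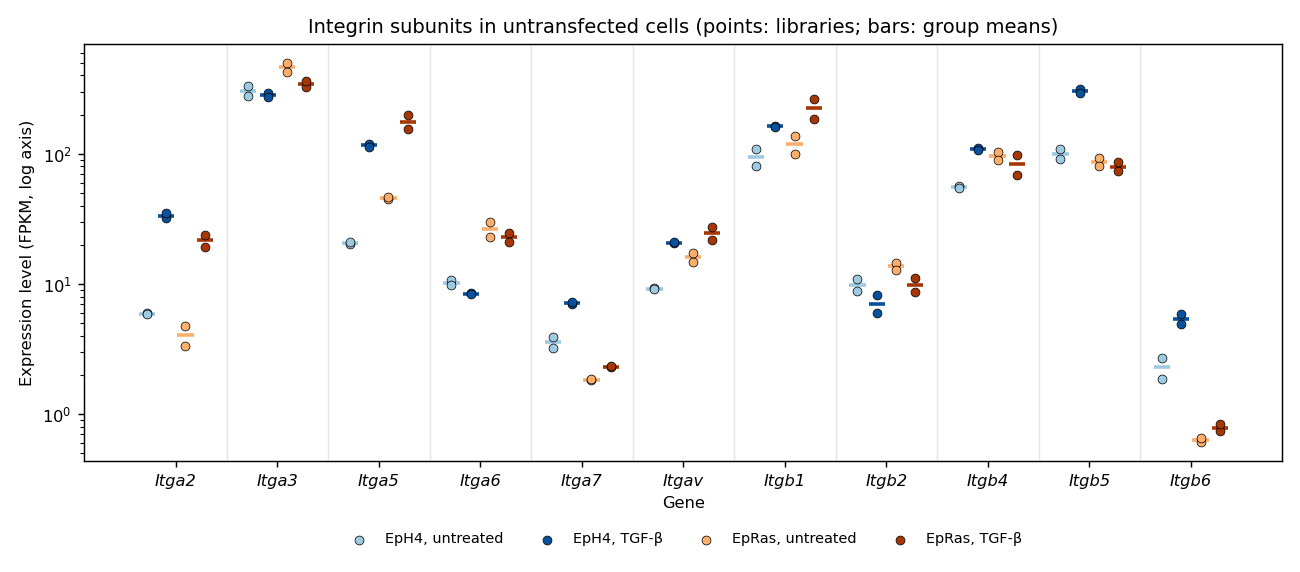
Expression levels of the 11 integrin subunits tested in the 8 untransfected libraries, in FPKM on a log axis. Points are libraries and bars are group means. Itga2 and Itga5 lie higher in the treated libraries of both lines, and Itgb5 lies at 294 and 316 FPKM in treated EpH4 cells and between 73.8 and 109 FPKM in all other libraries.

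Of the 5 fibroblast markers, 2 were tested, and both rose with TGF-β in EpH4 cells, against 6.48% of all genes tested. They were Col1a1 (3.34 ± 0.21, adjusted p = 0.000192) and Pdgfrb (2.16 ± 0.18, adjusted p = 0.000545). Pdgfra was not tested and went from 0.668 and 0.986 FPKM to 2.27 and 2.07 FPKM. Dcn and Lum were listed at 0. The summed level of the 5 markers was 20.3 to 23.2 FPKM in untreated and 209 to 234 FPKM in treated EpH4 cells, and 8.30 to 12.8 FPKM in the EpRas libraries. One of the 5 leukocyte markers, Csf1r, was at 0.185 and 0.103 FPKM in untreated and 6.23 and 5.74 FPKM in treated EpH4 cells, the only group in which it reached 5 FPKM, so this is a description. The summed leukocyte markers were at 1.96 to 2.28 FPKM in untreated and 6.52 to 8.49 FPKM in treated EpH4 cells, with Ptprc at 0. Of the 6 epithelial markers tested, Krt14 (1.20 ± 0.16, adjusted p = 0.00409) and Cdh1 (0.79 ± 0.15, adjusted p = 0.0210) rose in EpH4 cells, and Krt14 fell in EpRas cells (-0.78 ± 0.16, adjusted p = 0.0420). In bulk RNA, a change in the share of a cell type and a change in the RNA of each cell cannot be told apart, and the part of these markers in the results was not tested.

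Comparison of the lines without TGF-β showed higher levels of 7 of the 17 members in EpRas cells and lower levels of 2, against 17.6% of all genes called (8.45% higher, 9.11% lower). The members that were higher were Itga3, Itga5, Itga6, Itgav, Itgb4, Lamb1 and Lamc1, and those that were lower were Itga7 and Itgb6 (7 higher and 0 lower of the 15 other members with limma). Itga6, the partner of β4, showed the largest increase, with 10.6 and 9.75 FPKM in the EpH4 libraries against 23.0 and 29.6 FPKM in the EpRas libraries (1.28 ± 0.18, adjusted p = 0.00332). Itga5 followed, from 20.2 and 20.9 FPKM to 45.0 and 46.8 FPKM (1.12 ± 0.17, adjusted p = 0.00450). These 2 calls held in all 8 fits that left out 1 library each. Lamb1 (0.80 ± 0.15, adjusted p = 0.0116), Itgb4 (0.77 ± 0.20, adjusted p = 0.0346), Itgav (0.73 ± 0.17, adjusted p = 0.0263), Lamc1 (0.70 ± 0.16, adjusted p = 0.0220) and Itga3 (0.61 ± 0.17, adjusted p = 0.0450) differed by less, with libraries that did not overlap, and each of these calls was lost in at least 3 of the 8 fits. Itgb6 was at 1.86 and 2.71 FPKM in EpH4 cells and at 0.609 and 0.655 FPKM in EpRas cells (-1.0 ± 0.18), and Itga7 at 3.21 and 3.91 FPKM and at 1.83 and 1.85 FPKM (-0.68 ± 0.15). The values of these 2 genes are a description, since they entered the test through treated EpH4 cells alone. Epithelial markers differed between the same libraries, with Krt19 higher in EpRas cells (5.10 ± 0.23) and Krt14 (-1.69 ± 0.16) and Cdh1 (-0.96 ± 0.15) lower. Of the fibroblast markers, Col1a1 was lower (-2.96 ± 0.21) and Pdgfrb higher (2.14 ± 0.18), and the part of these markers in the results was not tested. The differences of Krt19 and Col1a1 are a description, since Krt19 reached 5 FPKM only in EpRas cells and Col1a1 only in EpH4 cells. Lama3 and Lamb3 were not called between the untreated lines (adjusted p = 0.734 for Lama3 and 0.102 for Lamb3).

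With TGF-β, 4 of the 17 members were higher and 4 lower in EpRas cells, against 21.3% of all genes (8.92% higher, 12.3% lower). Itga6 was again higher (1.34 ± 0.18, adjusted p = 0.00191), as were Lamc1 (0.67 ± 0.16, adjusted p = 0.0219), Lamb1 (0.65 ± 0.15, adjusted p = 0.0219) and Itga5 (0.58 ± 0.17, adjusted p = 0.0442). Lower were Itgb5 (-1.92 ± 0.17, adjusted p = 0.000322) and Lama3 (-0.71 ± 0.16, adjusted p = 0.0180). The other 2 lower members, Itgb6 (-1.84 ± 0.18) and Itga7 (-1.30 ± 0.15), were in the test through the treated EpH4 libraries alone, and without them 4 of 15 were higher and 2 lower. Lamb3, whose product joins with that of Lama3, was not called between the treated lines (0.25 ± 0.14, adjusted p = 0.234). In the same comparison Krt19 was higher (4.50 ± 0.23), and Krt14 (-3.67 ± 0.16), Cdh1 (-2.15 ± 0.15), Epcam (-2.42 ± 0.38), Col1a1 (-6.09 ± 0.21) and Pdgfrb (-0.66 ± 0.18) were lower in EpRas cells. Krt19 reached 5 FPKM in EpRas cells alone and Col1a1 in EpH4 cells alone, so the differences of these 2 genes are a description. In the pair α6β4, the FPKM of Itgb4 was 13.1 and 12.7 times that of Itga6 in treated EpH4 cells, 5.36 and 5.57 times in untreated EpH4 cells and 2.77 to 4.65 times in the 4 EpRas libraries. Both comparisons of the lines use the libraries of both TGF-β comparisons, so the 4 lists of calls share their samples.

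**Figure D3:**
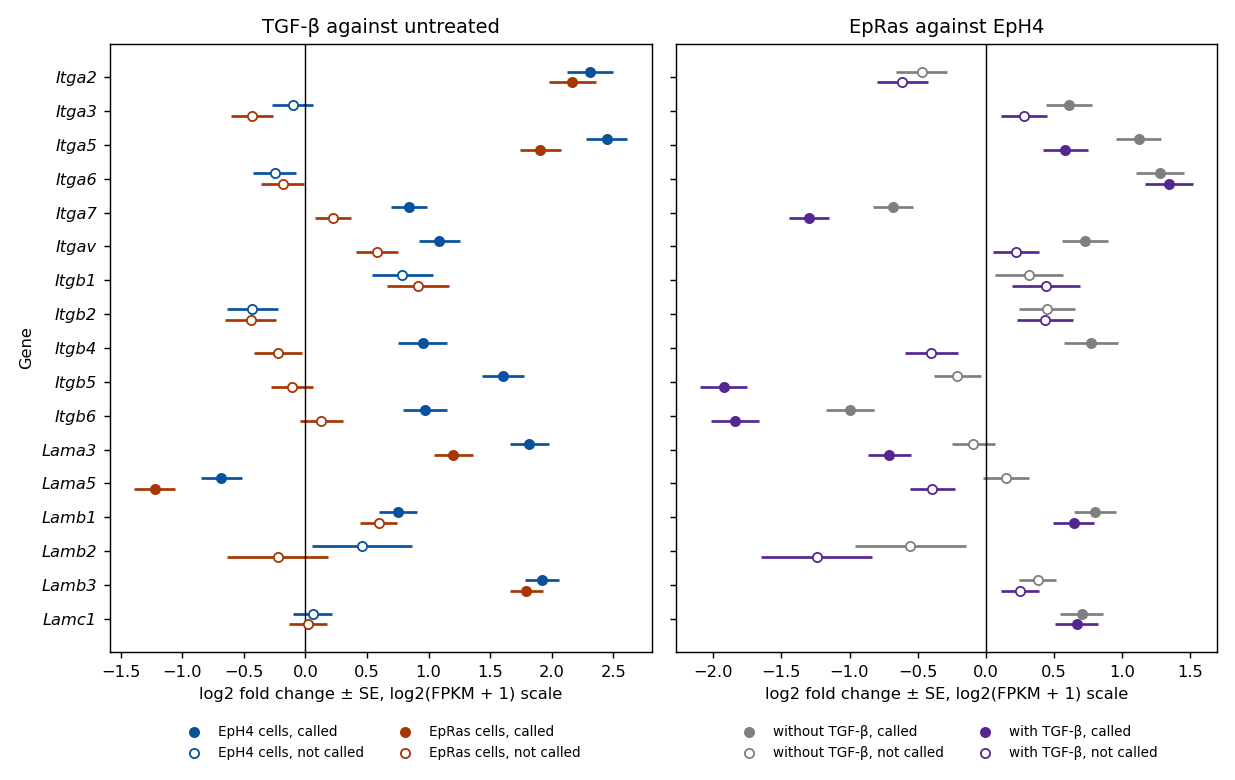
Log2 fold changes of the 17 tested members on the log2(FPKM + 1) scale, with bars of 1 SE, for TGF-β against untreated cells in each line (left) and for the difference between the lines, EpRas minus EpH4, in untreated and in treated cells (right). Filled points were called at an adjusted p under 0.05 and open points were not. Itgb5 stands at 1.60 in EpH4 cells and -0.11 in EpRas cells on the left.

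The siRNA libraries were used to describe how the members differed from siNC cells after knockdown of Etv4 and Etv5 in EpRas cells. Etv4 was at 57.4 FPKM in siNC cells without and 64.3 FPKM with TGF-β, and at 20.2 and 19.6% of these levels with siRNA pair 1 and 48.5 and 29.4% with pair 2. Etv5 was at 8.85 and 5.34 FPKM in siNC cells, and at 18.3 and 23.2% of these levels with pair 1 and 14.2 and 22.5% with pair 2. There was no replicate library for any of these conditions and no test was run, and a member was counted where both pairs differed from siNC in the same direction by at least 1.5-fold on FPKM + 1. The 2 pairs share the siNC library, and the tables of transfected and untransfected cells were quantified separately, so that levels should not be set against each other across them. Of the 18 expressed members, 16 reached 5 FPKM in the siRNA libraries, while Itga7 and Itgb6 did not.

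With both siRNA pairs, Lama3 and Itga2 were lower than in siNC cells without and with TGF-β, and Lamb3 and Lamb2 were lower by this rule with TGF-β only. Each difference is from 1 siNC library for each condition. It does not show a level below that of untransfected EpRas cells. Without TGF-β, 2 of the 16 members were lower with both pairs (Itga2 and Lama3) and 0 were higher, against 14.2% of all 9094 genes past the same rule (6.74% higher, 7.41% lower), so that the share of members without TGF-β was near that of all genes. With TGF-β, 4 were lower (Itga2, Lama3, Lamb2 and Lamb3) and 0 were higher, against 12.5% of all genes (5.65% higher, 6.87% lower). The median over the members of the mean log2 difference was -0.33 without and -0.39 with TGF-β, and that of all genes was 0.01 and 0.03. Markers moved in the same libraries, as the fibroblast markers Col1a1 and Pdgfrb and the epithelial marker Krt14 were higher with both pairs without and with TGF-β. With TGF-β, Col1a1 was at 2.44 FPKM in siNC cells and at 27.7 and 5.40 FPKM with pairs 1 and 2, and Pdgfrb at 2.09 FPKM and at 10.1 and 12.0 FPKM. Krt14 was at 140 FPKM in siNC cells and at 214 and 244 FPKM with the pairs and TGF-β, while the fibroblast marker Pdgfra and the leukocyte marker Cd68 were lower with both. Col1a1 and Pdgfrb reached 5 FPKM in knockdown libraries alone and Pdgfra and Cd68 in siNC libraries alone, so the values of these 4 genes are a description. The 5 fibroblast markers summed to 5.10 to 40.1 FPKM over the 6 libraries, with Lum at 0, and the part of these markers in the results was not tested.

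Lama3 was at 37.3 FPKM in siNC cells, 6.63 FPKM with pair 1 and 16.0 FPKM with pair 2 without TGF-β. With TGF-β it was at 114 FPKM in siNC cells, 18.3 FPKM with pair 1 and 38.1 FPKM with pair 2, which is 16.0 and 33.3% of siNC, the lowest remaining shares with TGF-β among the 16 members. Lamb3 was at 163, 48.7 and 138 FPKM without and at 581, 124 and 299.7 FPKM with TGF-β, in the same order, so that pair 2 left 85.1% of it without and 51.6% with TGF-β. Both pairs lay below siNC for both chains under both conditions, and pair 1 lay below pair 2. Itga2 was at 9.85, 1.73 and 4.03 FPKM without and at 30.1, 7.68 and 10.5 FPKM with TGF-β. Itga2 was the one member for which the intervals that the authors' Cuffdiff run gives for each FPKM lay below that of siNC with both pairs, in the presence of TGF-β (16.0 to 44.2 FPKM for siNC, 3.51 to 11.9 FPKM for pair 1 and 5.09 to 15.9 FPKM for pair 2). For Lama3 this held for pair 1 only (46.6 to 182 FPKM for siNC and 9.76 to 26.9 FPKM for pair 1 with TGF-β). Lamb2 was at 32.3 FPKM in siNC cells with TGF-β and at 20.3 and 17.2 FPKM with the 2 pairs, and it no longer counted with 5 FPKM added in place of 1.

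**Figure D4:**
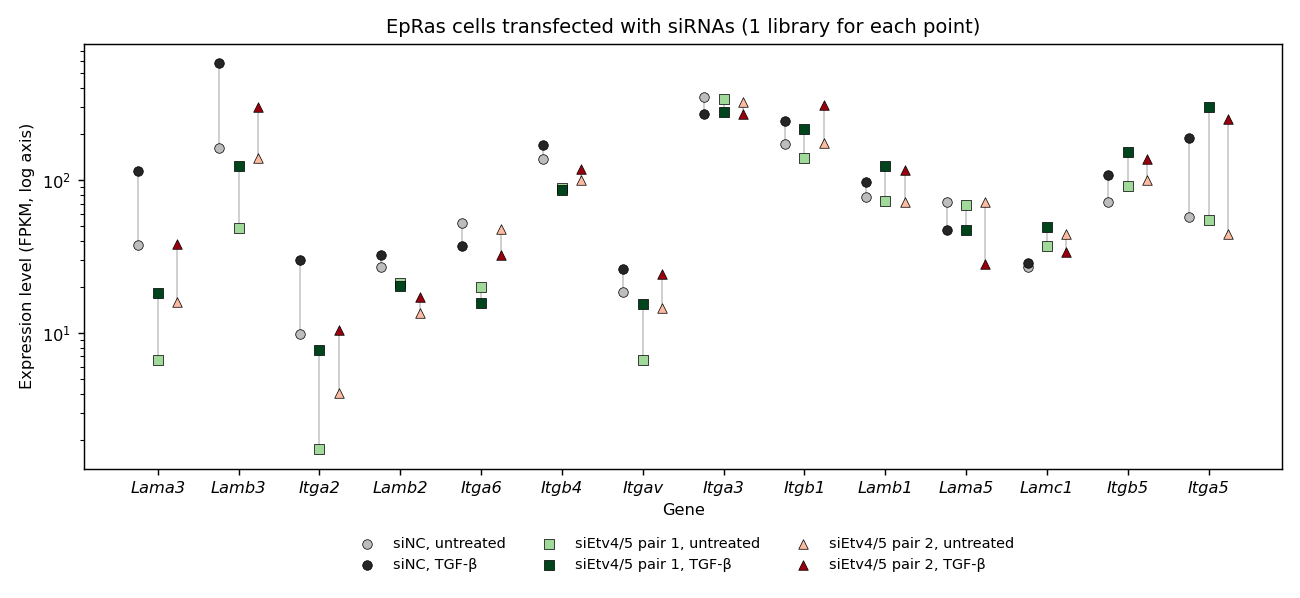
Expression levels of 14 members in the 6 libraries of transfected EpRas cells, in FPKM on a log axis, without (light) and with TGF-β (dark), for siNC (circles), pair 1 (squares) and pair 2 (triangles). Each point is 1 library and the lines join the untreated and treated libraries of a transfection. For Lama3, Lamb3 and Itga2 the squares and triangles lie below the circles of the same treatment, and for Itga5 with TGF-β they lie above, at 302 and 252 FPKM against 188 FPKM.

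No other member passed the rule with both pairs. Itgb2, the leukocyte β subunit, was at 17.6, 10.4 and 15.1 FPKM in siNC cells and with pairs 1 and 2 without TGF-β. In the presence of TGF-β the levels were 16.6, 6.31 and 10.8 FPKM, below siNC with both pairs, and Itgb2 counted as lower with 0.1 FPKM added in place of 1 and with upper quartile scaling. Itga6 was at 52.3 FPKM in siNC cells and at 19.9 FPKM with pair 1 but 47.6 FPKM with pair 2 without TGF-β, and the levels in the same order were 36.9, 15.6 and 32.1 FPKM after treatment. Itgav was at 18.4, 6.64 and 14.6 FPKM without and 26.2, 15.3 and 24.3 FPKM with TGF-β. Itgb4 was at 137, 88.2 and 100 FPKM without and 168, 86.4 and 118 FPKM with TGF-β, below siNC with both pairs but past the rule with pair 1 only. Itga3 kept 92.2 to 103% of its siNC level in all 4 knockdown libraries. Above siNC with both pairs and under both conditions lay Itgb5 (127 to 139% with pair 2 and 129 to 141% with pair 1) and Lamc1 (26.9, 37.0 and 44.6 FPKM without and 28.6, 49.6 and 33.7 FPKM with TGF-β). Itga5 was at 188 FPKM in siNC cells with TGF-β and at 302 and 252 FPKM with the 2 pairs. Lamb1 was at 96.7, 123 and 117 FPKM in the same libraries.

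The 4 members called higher with TGF-β in both untransfected lines were also higher with TGF-β in each of the 3 transfections. Lama3 was 3.07-fold higher with TGF-β in siNC cells, 2.77-fold with pair 1 and 2.38-fold with pair 2. The corresponding ratios of FPKM were 3.57, 2.55 and 2.16 for Lamb3, 3.06, 4.45 and 2.60 for Itga2 and 3.29, 5.49 and 5.68 for Itga5. In siNC cells, 9.59% of all genes were at least 1.5-fold higher with TGF-β on FPKM + 1. With both siRNA pairs the ratios of treated to untreated cells were above 2 for these 4 genes. Itgb3 went from 0.217 to 5.81 FPKM with TGF-β in siNC cells, from 0.391 to 4.85 FPKM with pair 1 and from 0.436 to 7.26 FPKM with pair 2. Itgb5 was 1.51-fold higher with TGF-β in siNC cells, 1.66-fold with pair 1 and 1.38-fold with pair 2, which is a rise not seen in the untransfected EpRas libraries. Lama5 was lower with TGF-β in all 3 transfections, at 0.657, 0.687 and 0.395 times the untreated level.

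The FPKM of Lama3 was 0.523 times that of Lama5 in siNC cells, 0.0969 times with pair 1 and 0.223 times with pair 2 without TGF-β, and 2.44, 0.391 and 1.34 times with TGF-β. The summed FPKM of the α subunits was 427 to 494 FPKM without and 559 to 624 FPKM with TGF-β over the 3 transfections, and that of the β subunits was 333 to 400 FPKM without and 468 to 583 FPKM with TGF-β.

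Other genes of the adhesion machinery were followed in lists written for this purpose. Of the 8 integrin ligands other than laminins, 6 were tested, and 5 rose with TGF-β in EpH4 cells and 4 in EpRas cells, against 6.48% and 1.90% of all genes. The largest increase was that of Tnc, which encodes tenascin-C (3.62 ± 0.17, adjusted p = 6.07e-05, in EpH4 cells and 3.26 ± 0.17, adjusted p = 0.000231, in EpRas cells). Fn1, the fibronectin ligand of α5β1, rose from a mean of 262 to 556 FPKM in EpH4 cells (1.09 ± 0.15, adjusted p = 0.00541) and from 305 to 914 FPKM in EpRas cells (1.58 ± 0.15, adjusted p = 0.00202). With siRNA pairs 1 and 2 and TGF-β, Fn1 was at 1718 and 1026 FPKM against 659 FPKM in siNC cells. Of 20 integrin adaptors and focal adhesion genes, 18 were tested, and 6 rose in EpH4 cells and 1 in EpRas cells, against 6.48% and 1.90% of all genes, the latter near its background. Tns1 was among the 6 and reached 5 FPKM in treated EpH4 cells alone, and without it 5 of 17 rose in EpH4 cells. The one that rose in both lines was Fermt1, which encodes kindlin-1, an activator of integrins in epithelia (2.60 ± 0.16, adjusted p = 0.000177, in EpH4 cells and 2.46 ± 0.16, adjusted p = 0.000385, in EpRas cells). In the siRNA libraries without TGF-β, 0 of the 18 adaptor genes were higher or lower with both pairs, against 6.74% and 7.41% of all genes. With TGF-β, 6 were higher and 0 were lower, against 5.65% and 6.87% of all genes, or 5 of 17 without Tns1, which reached 5 FPKM with pair 1 and TGF-β alone. Examples among these 5 were Fermt2 (52.3 and 37.2 FPKM against 19.4 FPKM) and Ilk (245 and 213 FPKM against 123 FPKM). Of the 4 laminin receptors that are not integrins, 0 were called higher with TGF-β with limma (2 in EpH4 and 3 in EpRas cells had an unadjusted p under 0.05 in either direction), against 6.48% and 1.90% of all genes. The syndecan Sdc4 fell in EpRas cells (-0.89 ± 0.16, adjusted p = 0.0304). Sdc1 was at 171 and 245 FPKM in untreated and 443 and 322 FPKM in treated EpH4 cells, which was not called (0.88 ± 0.34, adjusted p = 0.166) although the groups did not overlap. With both siRNA pairs, 1 of these 4 receptors was higher without TGF-β, namely Dag1 (90.5 and 144 FPKM against 38.3 FPKM). With TGF-β 1 was lower, namely Sdc1 (291 and 478 FPKM against 1038 FPKM). The shares of all genes were 6.74% higher without and 6.87% lower with TGF-β.

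Of the 7 basement membrane partners of laminins, 4 were tested, and 0 were called with TGF-β in either line with limma (0 of 4 also at an unadjusted p under 0.05), near the shares of all genes called (9.40% in EpH4 and 3.82% in EpRas cells). Between the lines, Col4a1 and Col4a2, which encode the network-forming collagen IV chains, had higher levels in EpRas cells under both conditions, while Agrn (-0.79 ± 0.19, adjusted p = 0.0220) and Hspg2 (-0.89 ± 0.21, adjusted p = 0.0238), which encode the proteoglycans agrin and perlecan, were lower in EpRas cells with TGF-β. Without TGF-β, the mean level of Col4a1 was 0.0133 FPKM in EpH4 cells against 12.9 FPKM in EpRas cells (3.78 ± 0.16), and both genes reached 5 FPKM in EpRas cells alone, so these differences are a description. Of the 4 hemidesmosome components, 3 were tested and 0 were called with TGF-β (2 of 3 in EpH4 cells and 0 of 3 in EpRas cells had an unadjusted p under 0.05), again near these shares, and Plec was higher in untreated EpRas cells (0.96 ± 0.19, adjusted p = 0.0132). Of the 4 integrin-binding tetraspanins, 1 was called with TGF-β in EpH4 cells and 0 in EpRas cells with limma (1 of 4 there had an unadjusted p under 0.05), against the same shares. Cd81 was lower in EpRas than in EpH4 cells without (-2.15 ± 0.20, adjusted p = 0.000580) and with TGF-β (-2.42 ± 0.20, adjusted p = 0.000242). Cd63 was lower with both siRNA pairs without TGF-β (269.9 and 302 FPKM against 553 FPKM) and not with TGF-β. Cd82 rose with TGF-β in EpH4 cells (0.83 ± 0.16, adjusted p = 0.0221) and was lower with both siRNA pairs in the presence of TGF-β (17.9 and 25.1 FPKM against 44.0 FPKM). Of the 4 basement membrane partners, Agrn alone passed the siRNA rule. It was higher without (59.2 and 52.1 FPKM against 33.7 FPKM) and with TGF-β (65.3 and 64.8 FPKM against 39.3 FPKM). Of all genes, 6.74% and 5.65% were higher under these conditions.

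The other 18 members stayed under 5 FPKM in all 14 libraries. Of all 36 members, 16 were under 1 FPKM throughout, and Itga4, Itga9 and Itgad were listed at 0 in every library. The leukocyte α subunits that pair with β2 (Itgal, Itgam, Itgad and Itgax) were at 0.108 FPKM or less in all libraries, while Itgb2 itself was at 5.96 to 14.6 FPKM in the untransfected libraries and was not called in any comparison. The platelet subunit Itga2b, whose product pairs with β3, was highest in siNC cells with TGF-β (3.78 FPKM, against 1.54 FPKM without), and was at 2.11 and 0.505 FPKM with pairs 1 and 2 and TGF-β. Lama1, Lama2 and Lama4 were at or below 0.129 FPKM in all libraries, so that Lama3 and Lama5 were the laminin α chains at 5 FPKM or more.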

How the data were processed

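Poly(A) RNA was made into directional libraries and sequenced on an Ion Proton instrument. The authors aligned reads to mm10 with TopHat2 2.0.11 and Bowtie2 2.2.2.2 and obtained FPKM per gene and library with Cufflinks 2.2.0 and Cuffdiff (tools per the submitters' processing notes), in separate runs for untransfected and siRNA-transfected cells, so comparisons were made within each deposited FPKM table. The tables also hold an interval for each FPKM. No per-sample FPKM column was left unused (0 columns), and genes whose status was not OK were left out. The intervals were used for the siRNA libraries only. Untransfected groups were compared with limma 3.58.1 (R 4.3.3) on log2(FPKM + 1), with 4 groups, no block, a filter of 5 FPKM in at least 1 library, two-sided tests and Benjamini-Hochberg adjustment over all genes tested. Single siRNA libraries were compared by a rule of 1.5-fold in both pairs. The fit was tested on simulated data. Tables were handled with Python 3.11.15 (numpy 2.4.6, pandas 2.3.3), and figures were drawn with matplotlib 3.10.9. One gene that the symbol rule finds and one marker gene are not reported here, and the counts leave them out. Every other expressed integrin and laminin gene was eligible for naming, as were genes of the accompanying lists that were called or past the fold rule. The members and lists were chosen with earlier results of these data known. Alternatives were other pseudocounts (0.1 and 5), filters, scalings, a replicate block, fits of only the groups compared and leaving out each library. Leaving out 1 library from the Itgb3 read ratios, and counting members and list genes without those that reached the filter in 1 group alone, were alternatives chosen after seeing the data.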

Additional observations from a re-analysis of the deposited data

Results flagged for a closer look

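The effect of TGF-β on Itgb5 differed between EpH4 and EpRas cells by -1.71 on the log2(FPKM + 1) scale (EpRas minus EpH4, 95% interval -2.29 to -1.14, limma, adjusted p = 0.0287), which is a difference of effects between the lines. Itgb5 was higher in both treated EpH4 libraries than in both untreated ones, and the treated and untreated EpRas libraries overlapped. The call was lost in 7 of the 8 fits that left out 1 library, with adjusted p-values up to 0.200, and with the replicate number as a block (adjusted p = 0.0866).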

How the results depend on the processing

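Counts are of members called among 17 (16 for siRNA). Fits of only the groups compared called 4 members between the lines with TGF-β and 1 (Lamb3) with TGF-β in EpRas cells. They gave no value for the difference of effects. In EpRas cells these fits lost Itga2 and Itga5 (limma, adjusted p = 0.0521 for each), Lama3 (0.104) and Lama5 (0.111). Without a filter on low values, 8 of all members were called with TGF-β in EpRas cells, of which Itgb3, Itga8 and Itgb7 are not among the 17. The replicate numbers did not mark pairs (correlations of deviations -0.347 to 0.0785), and with the replicate block 5 members were called between the untreated lines and 0 for the difference of effects, while the calls over all genes went to 1121 and 31. Leaving out 1 library, which leaves a group with 1 library that is assumed to vary like the others, gave 2 to 9 calls between the untreated lines, 4 to 9 between the treated lines, 5 to 11 with TGF-β in EpH4 cells, 4 to 5 in EpRas cells and 0 to 2 for the difference of effects. Calls that held in all 8 of these fits were Itga5 and Itga6 between the untreated lines, Itga6 and Itgb5 between the treated lines, Itga2, Itga5, Itgb5, Lama3 and Lamb3 with TGF-β in EpH4 cells, and Itga2, Itga5 and Lamb3 in EpRas cells. In EpRas cells, Lama3 was lost without replicate 2 (adjusted p = 0.0627) and Lama5 without replicate 1 (adjusted p = 0.0720) of the untreated cells. Between the treated lines, Lama3 and Lamc1 were lost without either treated EpH4 library, Lamb1 without these or replicate 1 of treated EpRas cells, and Itga5 in 7 of the 8 fits. With TGF-β in EpH4 cells, Itgav, Itgb4 and Lamb1 were lost without any 1 of the 4 EpH4 libraries, and Lama5 in 6 of the 8. Between the untreated lines, Itga3, Itgav, Itgb4 and Lamc1 were lost in 6 fits and Lamb1 in 3. Itga7 and Itgb6, which passed the filter through treated EpH4 cells alone, are left out of these lists. The cause was not tested. Pair 1 alone put 7 members past 1.5-fold without and 10 with TGF-β, pair 2 alone put 4 past it without TGF-β, and a 2-fold rule left 2 with TGF-β. Values near 0 that were not called changed sign. For the difference of effects, Itgb2 came to 0.032 and Lamc1 to 0.012 with upper quartile scaling and Itgb2 to 0.00075 with median centring. Without 1 library, the difference of effects ranged from -0.121 to 0.373 for Itgb1, -0.211 to 0.185 for Itgb2, -0.168 to 0.0942 for Lamc1, -0.111 to 0.244 for Itga6 and -0.346 to 0.0605 for Itga2. The range was -0.232 to 0.0240 for Itga3 with TGF-β in EpH4 cells, -0.198 to 0.0131 for Lama3 between the untreated lines, and, with TGF-β in EpRas cells, -0.109 to 0.153 for Lamc1, -0.471 to 0.0290 for Itgb4 and -0.879 to 0.428 for Lamb2. Over all member values and alternatives except the Tukey-Kramer test, 1276 kept direction and side of the threshold, 113 lost the call, 6 gained one and 23 changed sign. With 2 libraries a group, and 1 for siRNA, replicate number limits the precision.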
